A study of Mus musculus with 9 samples.

Results

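The methionine cycle, the folate cycle and the breakdown of threonine were examined through 9 genes, Bhmt, Bhmt2, Mat2a, Mtr, Ahcy, Gnmt, Tdh, Gcat and Shmt2. They were taken by name from the 25965 genes of the deposited table, and each had 1 row. Bhmt was selected on its rise with Dppa4 siRNA, so its difference between Dppa4 siRNA and control siRNA is a description. The SE, interval and call printed for that difference are not read as a test. The other 8 genes were chosen because they act in the same or neighbouring reactions. The question was whether the higher level of Bhmt was isolated or shared by these genes.

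RNA was sequenced from E14 mouse embryonic stem cells (ESCs) of the 129/Ola background, grown without feeder cells in serum and LIF. The paper states that its Dppa2 and Dppa4 knockdowns used serum ESCs carrying MERVL::tdTomato and Zscan4c::eGFP reporters. Cells received control, Dppa2 or Dppa4 siRNA at 0 h and again at 48 h, and polyadenylated RNA was prepared from cells collected at 96 h. Each treatment has 3 libraries, labeled rep3A, rep3B and rep3C and called A, B and C here, which gives 9 libraries in all. The study calls the values of a treatment in its repeat analysis biological replicates, and the labels do not say whether the 3 libraries came from separate cultures or transfections; p-values measure the spread between these libraries.

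Methionine is converted into S-adenosylmethionine, the methyl donor of most cellular methylation reactions, and the homocysteine left after methyl transfer is turned back into methionine. The methyl group for this last step comes from folate or, mainly in liver and kidney, from betaine. Mouse ESCs are known for breaking down threonine to glycine, which feeds the folate-bound carbon units used in nucleotide and methionine synthesis.

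Values are normalized log2 expression as deposited, and a difference is a knockdown minus control siRNA on the log2 scale unless another pair is named. Differences were tested with limma on all 9 libraries, with Benjamini-Hochberg adjustment over the 14601 genes whose log2 expression exceeded -2 in 3 or more libraries. A gene was called high-confidence if its adjusted p was below 0.05 and it also passed an intensity difference filter, which compares its difference with that of genes of similar expression. For low genes, numbers of reads were inferred from the steps between the deposited values. The estimated reads on genes, in Mreads, were 24.1, 40.3 and 19.3 in control libraries A, B and C, 25.3, 19.6 and 16.8 with Dppa2 siRNA, and 27.4, 28.4 and 20.6 with Dppa4 siRNA.

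The targeted genes were examined first. Dppa2 (ENSMUSG00000072419) had log2 expression of 7.26, 7.16 and 6.94 with control siRNA, 3.36, 3.86 and 3.68 with Dppa2 siRNA, and 7.01, 7.17 and 7.03 with Dppa4 siRNA. Dppa4 (ENSMUSG00000058550) had 7.02, 7.11 and 7.06 with control siRNA, 7.11, 7.07 and 7.17 with Dppa2 siRNA, and 6.16, 6.14 and 6.09 with Dppa4 siRNA. In the 3 libraries that received its own siRNA, each gene was below its level in the other 6 libraries. By limma Dppa2 fell by 3.49 under its siRNA (SE 0.14 and adjusted p = 2.13e-05), and Dppa4 fell by 0.93 under its own (SE 0.08 and adjusted p = 0.000281). These are RNA levels. The paper reports that Dppa4 siRNA also lowered Dppa2 protein while Dppa2 mRNA was unchanged. It reports a smaller loss of Dppa4 protein with Dppa2 siRNA.

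Bhmt transfers a methyl group from betaine to homocysteine. It lies on the reverse strand of chromosome 13 (GRCm38) from 93616891 to 93637961 (ENSMUSG00000074768). Its log2 expression was -3.39, -2.42 and -4.28 in control libraries A, B and C, -1.56, -1.03 and -1.49 with Dppa2 siRNA, and -0.15, -0.10 and 0.71 with Dppa4 siRNA. All 3 libraries with Dppa4 siRNA were above all 3 with Dppa2 siRNA, and these were above all 3 control libraries. The inferred reads were 4, 13 and 1 with control siRNA, 9, 10 and 6 with Dppa2 siRNA, and 27, 29 and 38 with Dppa4 siRNA. Bhmt was therefore near the limit of detection in control cells, and 1 control library rested on a single read.

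On the deposited scale Bhmt was higher by 3.51 with Dppa4 siRNA (SE 0.48), the largest positive difference among the 14601 genes tested in that comparison. On inferred reads per Mread of the library (RPM), a scale added after the data were seen, Bhmt was at 0.166, 0.323 and 0.0518 in the control libraries, 0.356, 0.510 and 0.358 with Dppa2 siRNA, and 0.986, 1.02 and 1.85 with Dppa4 siRNA. The log2 difference for Dppa4 siRNA was then 2.37. The ratio of mean RPM was 7.13, against a fold of 11.4 from the deposited values. With Dppa2 siRNA the difference in Bhmt was 2.0 (limma SE 0.48, adjusted p = 0.064; 0.0311 to 0.292 over the alternatives tried) and did not pass the threshold. It passed limma but not the intensity difference filter without control library B (2.47, adjusted p = 0.0332), with no filter on low values (adjusted p = 0.0311) and with quantile normalization (2.06, adjusted p = 0.0408). Between the knockdowns Bhmt differed by 1.52, Dppa4 minus Dppa2 (limma SE 0.48, adjusted p = 0.666), so a difference between them was not shown. Both comparisons reuse libraries that the choice of Bhmt used, the control libraries in the first and the Dppa4 libraries in the second, and Bhmt passed the filter on low values through the knockdown libraries alone, so these p-values are descriptions.

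Parts of the Bhmt transcript are not unique. Of 2441 stretches of 50 bases, 59.6% also occur in another annotated gene, mostly in the gene Gm5096 (56.9%) and the pseudogene Bhmt-ps1 (31.8%). Gm5096 had between 0 and 7 inferred reads in each of the 9 libraries, and Bhmt-ps1 was listed at 0 reads in all 9. How reads with several matches were counted is not given in the sources used here.

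Bhmt2, which methylates homocysteine with S-methylmethionine, is the neighbour of Bhmt (93655720 to 93674302, ENSMUSG00000042118). Its log2 expression was -1.22, -1.04 and -1.83 with control siRNA, -0.69, -0.57 and -0.52 with Dppa2 siRNA, and -1.10, -0.74 and -0.19 with Dppa4 siRNA. The libraries with Dppa4 siRNA overlapped the control libraries, whereas those with Dppa2 siRNA were all above them on this scale. The difference was 0.69 with Dppa4 siRNA (limma SE 0.32, adjusted p = 0.297) and 0.77 with Dppa2 siRNA (limma SE 0.32, adjusted p = 0.270). Its inferred reads were 8 to 30 in the control libraries and 13 to 19 in the knockdown libraries, and its ratio of mean RPM was 1.16 with Dppa4 siRNA and 1.21 with Dppa2 siRNA. In RPM control library B (0.745) was above Dppa2 libraries A and B (0.672 and 0.713), so the groups overlapped. Of the 50-base windows of the Bhmt coding sequence, 10 of 1172 are identical to a stretch of Bhmt2 and 85.2% differ from it at more than 3 bases.

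Mtr is the cobalamin-dependent enzyme that takes the methyl group for homocysteine from folate. Its log2 expression was 4.51, 4.25 and 4.11 with control siRNA, 3.93, 4.25 and 3.97 with Dppa2 siRNA, and 4.11, 4.15 and 4.33 with Dppa4 siRNA. The groups overlapped in both comparisons. The difference was -0.09 with Dppa4 siRNA (95% interval -0.41 to 0.23, adjusted p = 0.828 from limma) and -0.24 with Dppa2 siRNA (95% interval -0.56 to 0.08, adjusted p = 0.509 from limma).

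Mat2a makes S-adenosylmethionine and Ahcy hydrolyses the S-adenosylhomocysteine left after methyl transfer. Mat2a was at 8.69, 8.33 and 7.98 with control siRNA, 7.88, 8.50 and 8.02 with Dppa2 siRNA, and 8.25, 8.47 and 8.55 with Dppa4 siRNA. Ahcy was at 8.21, 8.23 and 8.46, then 8.41, 8.18 and 8.16, and then 8.17, 8.50 and 8.42 in the same order of groups. Both genes varied as much within a treatment as between treatments. With Dppa4 siRNA the difference was 0.09 for Mat2a (95% interval -0.38 to 0.56) and 0.06 for Ahcy (95% interval -0.22 to 0.34). Of the 50-base stretches of Ahcy, 75.6% also occur in another annotated gene and 72.7% occur in Gm4737, which had log2 expression of 4.48 to 5.07 in the 9 libraries. The pseudogene Gm9826, which holds 33.3% of them, varied within treatments, at 2.29, 2.57 and -4.49 with control siRNA, -3.09, 1.96 and -2.95 with Dppa2 siRNA, and 0.87, 2.26 and 2.87 with Dppa4 siRNA. With Dppa2 siRNA the difference was -0.21 for Mat2a (limma SE 0.21, adjusted p = 0.782) and -0.05 for Ahcy (limma SE 0.12, adjusted p = 0.944).

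Gnmt uses S-adenosylmethionine to methylate glycine (chromosome 17, 46725664 to 46729168, ENSMUSG00000002769). Its mean was below that of control siRNA with both siRNAs, but it was high-confidence with neither in the main fit. Its log2 expression was -0.83, 0.49 and 0.39 with control siRNA, -1.40, -1.16 and -2.04 with Dppa2 siRNA, and -2.0, -1.75 and -2.07 with Dppa4 siRNA. All 6 knockdown libraries were below all 3 control libraries, with control library A closest to them. The inferred reads were 19, 80 and 34 with control siRNA, 10, 9 and 4 with Dppa2 siRNA, and 8, 9 and 5 with Dppa4 siRNA. With Dppa4 siRNA Gnmt fell by 1.95 (limma SE 0.40, adjusted p = 0.0344), but it did not pass the intensity difference filter, whose value was 0.156, and was not high-confidence. With Dppa2 siRNA the difference was -1.55 (limma SE 0.40, adjusted p = 0.0836; 0.0254 to 0.283 over the alternatives tried). Without control library A it passed limma with Dppa2 siRNA (-1.98, adjusted p = 0.0254) but not the intensity difference filter; in the version run first, where the filter on low values was applied again to the libraries left, it passed both (adjusted p = 0.045). It also passed limma alone with Dppa2 siRNA with no filter on low values (adjusted p = 0.0311) and on the RPM scale (adjusted p = 0.0282). Without control library A, Gnmt was high-confidence with Dppa4 siRNA, at a difference of -2.38 (adjusted p = 0.012 from limma; 0.012 to 0.13 over the alternatives tried). With Dppa4 siRNA Gnmt no longer passed limma with no filter on low values (adjusted p = 0.0885), with a replicate block (0.0798), with only the 6 libraries compared (0.0705), without control library B or C (adjusted p = 0.104 and 0.0786), without Dppa2 library A (0.0608), or without Dppa4 library A, B or C (0.13, 0.109 and 0.111). None of its stretches of 50 bases occur in another annotated gene.

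Tdh oxidizes threonine and Gcat then cleaves the product to glycine and acetyl-CoA. Tdh was at 7.31, 7.48 and 7.61 with control siRNA, 7.51, 7.18 and 7.40 with Dppa2 siRNA, and 7.50, 7.44 and 7.30 with Dppa4 siRNA. Gcat was at 5.71, 6.25 and 6.30, then 6.32, 5.78 and 6.19, and then 6.29, 6.06 and 5.82. The groups overlapped for both genes. With Dppa4 siRNA the difference was -0.06 for Tdh (95% interval -0.32 to 0.21) and -0.03 for Gcat (95% interval -0.49 to 0.43). Control library A, Dppa2 library B and Dppa4 library C were the lowest of their groups for both genes and the highest of their groups for Mat2a and Mtr. These libraries also deviated together from the means of their groups over all genes tested (Pearson r of 0.69 for control A with Dppa2 B, 0.46 for control A with Dppa4 C and 0.41 for Dppa2 B with Dppa4 C), whereas libraries of the same letter did so less (-0.58 to 0.37). The part of this shared pattern in the differences was not tested.

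Shmt2 converts serine to glycine in mitochondria and loads a carbon unit onto folate (chromosome 10, 127517123 to 127522444, ENSMUSG00000025403). Its row has the name and coordinates of Shmt2 but the transcript ID and description of another gene, and was taken by its name. Its log2 expression was 7.61, 7.85 and 7.63 with control siRNA, 8.04, 8.04 and 8.01 with Dppa2 siRNA, and 8.26, 8.16 and 7.97 with Dppa4 siRNA. All 6 knockdown libraries were above all 3 control libraries. The difference was 0.43 with Dppa4 siRNA (limma SE 0.10, adjusted p = 0.0629) and 0.34 with Dppa2 siRNA (limma SE 0.10, adjusted p = 0.146). Neither passed the threshold. Over the alternatives tried the adjusted p ran from 0.0553 to 0.247 with Dppa4 siRNA and from 0.0325 to 0.353 with Dppa2 siRNA, and the lowest of the latter came with no filter on low values.

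**Figure D1:**
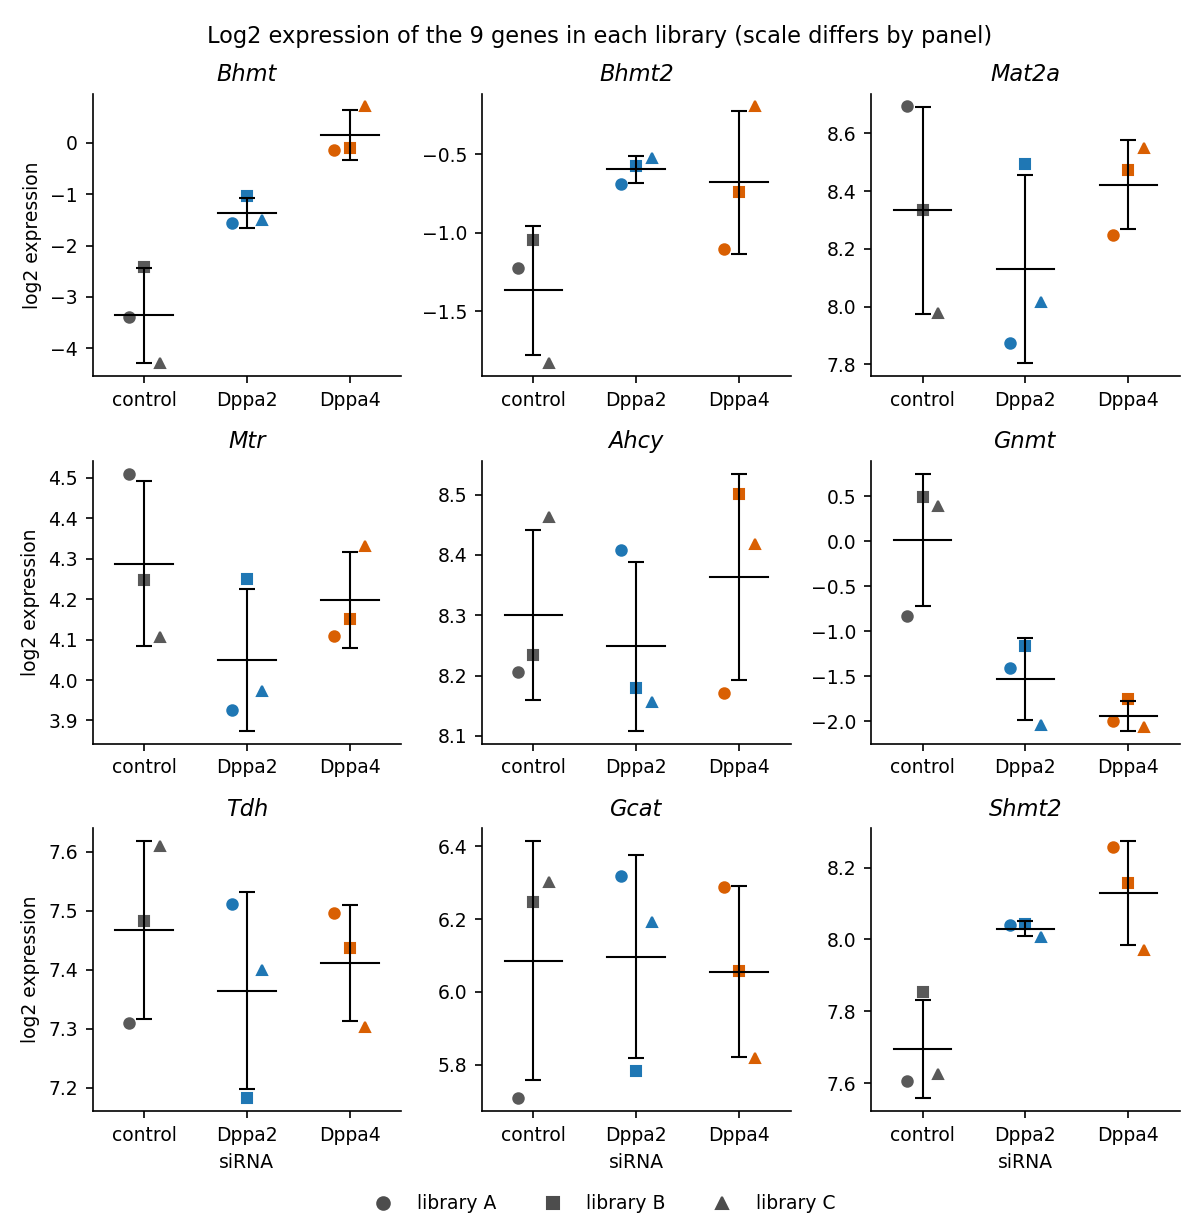
Log2 expression of the 9 genes in each library, by siRNA; symbols mark libraries A, B and C, and bars give the mean and SD of 3 libraries. Bhmt is lowest with control siRNA (-4.28 to -2.42) and highest with Dppa4 siRNA (-0.15 to 0.71), Gnmt is highest with control siRNA, and Mat2a, Mtr, Ahcy, Tdh and Gcat overlap between groups.

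Across the 9 genes, 1 was high-confidence with Dppa4 siRNA, Bhmt itself, against 0.37% of all genes tested that were high-confidence and raised and 1.58% that were high-confidence and lowered. Nothing is read from that share, because the comparison chose Bhmt. That call of Bhmt was lost when the p of the intensity difference filter was adjusted over all genes, and Bhmt was not tested where log2 above 0 was required in 3 libraries. Among the other 8 genes 0 were high-confidence with Dppa4 siRNA by limma and the filter, 2 had an unadjusted p below 0.05 (Gnmt and Shmt2; 18% of all genes), and Gnmt alone passed limma, where 1.1% of all genes were raised and 2.34% lowered. With Dppa2 siRNA 0 of the 9 genes were high-confidence, while 0.377% of all genes were high-confidence and raised and 1.53% lowered. By limma alone 0 of the 9 passed with Dppa2 siRNA (background 1.16% raised and 2.27% lowered). Of the 8 genes other than Bhmt, 3 had an unadjusted p below 0.05 with Dppa2 siRNA (15.7% of all genes). Bhmt did too, but on control libraries that its choice used. Between the knockdowns 0 of the 9 passed limma, against 0.0205% of all genes, which were Dppa2, Dppa4 and 4930486L24Rik. Without Dppa4 library B or C, 1 gene passed, which was Dppa2.

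Groups without overlap on the deposited scale were more common than calls. Of the 8 genes other than Bhmt, 1 had all 3 Dppa4 siRNA libraries above the control libraries (Shmt2, 13.7% of all genes). With Dppa4 siRNA 1 of the 8 had all 3 below (Gnmt, 10.2% of all genes). With Dppa2 siRNA the counts among the 8 were 2 (Bhmt2 and Shmt2, 9.57% of all genes) and 1 (Gnmt, 8.2% of all genes). Bhmt lay above the control libraries in both knockdowns and is left out of these counts, because its choice used the control libraries. The 2 comparisons share their control libraries, so they are not independent of each other. The median difference of the 8 genes other than Bhmt was 0.02 with Dppa4 siRNA and -0.08 with Dppa2 siRNA, beside 0.03 and 0.02 over all genes tested. In bulk RNA, fewer cells with a transcript and less of it per cell cannot be told apart.

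**Figure D2:**
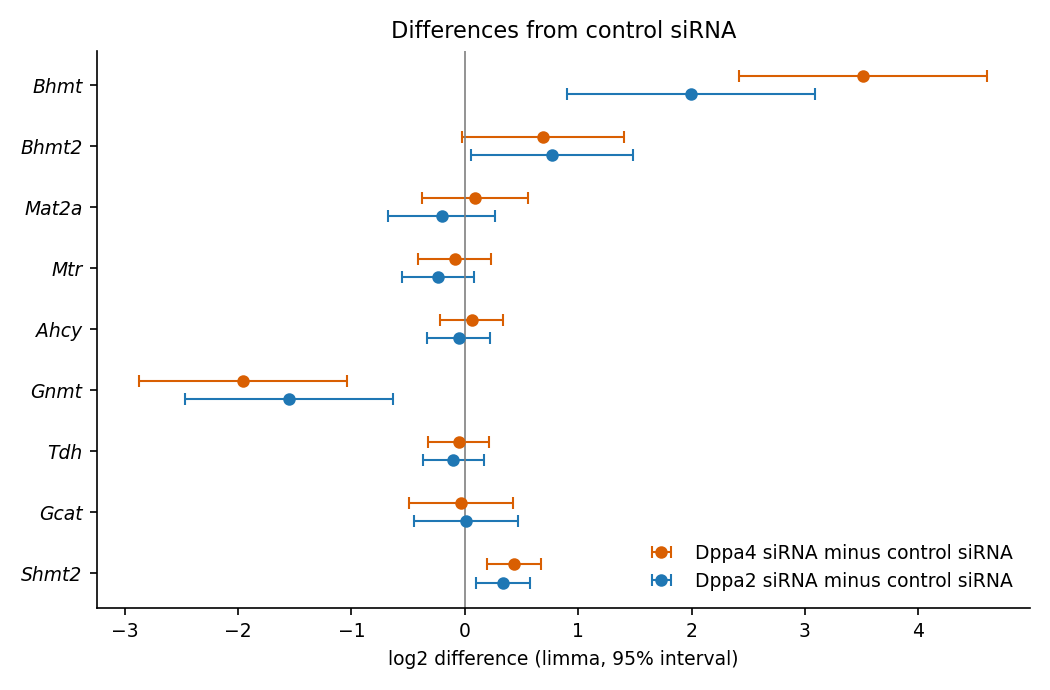
Differences in log2 expression between each knockdown and control siRNA for the 9 genes, with 95% intervals from limma. With Dppa4 siRNA the interval of Bhmt (2.42 to 4.61) lies above those of the other 8 genes, and that of Gnmt (-2.87 to -1.04) lies below 0. The interval of Bhmt describes the value that chose the gene.

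Levels of the genes were compared per length of exon. In control cells the mean log2 expression per kb of exon was highest for Ahcy (6.95), followed by Mat2a (6.57), Tdh (6.56), Shmt2 (6.49), Gcat (4.83), Mtr (1.24), Gnmt (-0.04), Bhmt2 (-2.67) and Bhmt (-4.68). Mat2a, Tdh and Shmt2 were not separated beyond their spread, nor was Ahcy from Mat2a. The order at the low end was different with Dppa4 siRNA, where means were -1.16 for Bhmt, -1.98 for Bhmt2 and -1.99 for Gnmt per kb. Bhmt2 and Gnmt were then not separated beyond their spread. Bhmt thus stayed far below Mtr, at 1.14 per kb with Dppa4 siRNA, in the treatment where it was highest.

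The wider pathway was described with 102 genes in 10 lists, of which 93 passed the filter on low values and were tested. Apart from the 9 genes above, 84 were tested. With Dppa4 siRNA 1 of the 84 was high-confidence, Sms, the spermine synthase, which was lowered (1.58% of all genes lowered and 0.37% raised). Sms had log2 expression of 7.08, 6.88 and 7.15 with control siRNA, 6.77, 6.81 and 6.70 with Dppa2 siRNA, and 6.42, 6.45 and 6.69 with Dppa4 siRNA. It fell by 0.52 with Dppa4 siRNA (limma SE 0.11, adjusted p = 0.0352), and all 3 libraries were below the control libraries. The call was lost without control library A or C, without Dppa2 library A or C, and without Dppa4 library A or B, with adjusted p of 0.0903, 0.0656, 0.0682, 0.0725, 0.162 and 0.175 from limma in that order. It was also lost with a replicate block (adjusted p = 0.106), with only the 6 libraries compared (0.106), with no intensity trend (0.053) and with no filter on low values (0.0535), and was kept in 10 of 27 other fits (0.0235 to 0.175 over them) and lost with the adjusted p of the filter. With Dppa2 siRNA 1 of the 84 was high-confidence, Ddit4, a stress-induced inhibitor of mTORC1 signaling, which was raised (0.377% of all genes raised and 1.53% lowered). Ddit4 was at 5.87, 6.23 and 5.75 with control siRNA, 6.77, 6.72 and 6.97 with Dppa2 siRNA, and 6.15, 5.99 and 6.0 with Dppa4 siRNA. It rose by 0.87 with Dppa2 siRNA (limma SE 0.14, adjusted p = 0.00898), a call lost without Dppa2 library C (adjusted p = 0.052 from limma), with a replicate block (0.0516) and with only the 6 libraries compared (0.054; 0.00656 to 0.054 over the alternatives tried). Cth was also high-confidence with Dppa2 siRNA without control library B (0.54, adjusted p = 0.0497 from limma; 0.0311 to 0.236 over the alternatives tried), and As3mt without control library C (0.92, adjusted p = 0.0484 from limma; 0.0484 to 0.491 over them). With Dppa4 siRNA the difference in Ddit4 was 0.10 (limma SE 0.14, adjusted p = 0.80).

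The median difference over these 84 genes was 0.06 with Dppa4 siRNA and 0.06 with Dppa2 siRNA, close to the 0.03 and 0.02 of all genes tested. With Dppa4 siRNA 12 of the 84 had an unadjusted p below 0.05 (18% of all genes), 8 raised and 4 lowered. With Dppa2 siRNA 16 did (15.7% of all genes), 15 raised and 1 lowered. Over all 14601 genes tested these were 1435 raised and 1199 lowered with Dppa4 siRNA, and 1257 and 1035 with Dppa2 siRNA. Apart from Bhmt, which was chosen on this difference, 0 tested genes of the 10 pathway lists were high-confidence and raised with Dppa4 siRNA (0.37% of all genes). At that share a count of 0 does not set these lists apart from other genes. The methionine cycle list had a median of 0.06 with Dppa4 siRNA over 11 tested genes. Mat1a, the liver form of the S-adenosylmethionine synthase, was not tested and was at 0 reads in 7 of the 9 libraries.

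Genes that supply or use betaine were examined next to Bhmt. Of 10 genes for betaine and choline oxidation, 8 were tested and 0 were called in either knockdown by limma with the filter (2 and 1 had an unadjusted p below 0.05 with Dppa4 and Dppa2 siRNA; 18% and 15.7% of all genes). The largest difference was that of the betaine transporter Slc6a12, at 0.85 with Dppa4 siRNA and 0.97 with Dppa2 siRNA, on 1 to 19 reads per library. It rested on control library A, which had 1 read: without it the values were -0.047 and 0.076, and the ratios of mean RPM over all libraries were 0.992 and 1.14. The lowest was -0.28 for Slc44a1, a choline transporter, with Dppa4 siRNA, and -0.10 for Pemt with Dppa2 siRNA. Dmgdh, which oxidizes the dimethylglycine that Bhmt produces, was at -0.12, -0.02 and 0.14 with control siRNA and at 0.53, 0.55 and 0.81 with Dppa4 siRNA. Its difference was 0.63 (limma SE 0.20, adjusted p = 0.129), and its ratio of mean RPM was 1.28 with Dppa4 siRNA and 0.935 with Dppa2 siRNA. Chdh and Sardh did not pass the filter on low values. Sardh, which oxidizes the sarcosine that Gnmt produces, had 6, 13 and 5 inferred reads in the control libraries and was listed at 0 in all 6 knockdown libraries; it is singled out after its values were seen. Pnmt, which uses S-adenosylmethionine to methylate noradrenaline and was not tested either, had 3, 13 and 4 inferred reads in the control libraries, 0 in 5 knockdown libraries and 1 in Dppa4 library A.

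In the other lists the genes with the largest and smallest differences, apart from Sms with Dppa4 siRNA and Ddit4 with Dppa2 siRNA, did not pass the test. For threonine and glycine breakdown these were Tha1 (0.55 with Dppa4 siRNA, 0.76 with Dppa2 siRNA), Tdh with Dppa4 siRNA and Sdsl (-0.59 with Dppa2 siRNA, on 1 to 23 reads per library, and -1.31 to 0.22 when 1 library was left out). The ratios of mean RPM of Tha1, on 17 to 38 reads per library, were 1.11 and 1.29, smaller than the deposited values give. For serine synthesis they were Srr (0.57 and 0.59, with ratios of mean RPM of 1.245 and 1.29, also smaller), Psat1 (-0.01 with Dppa4 siRNA) and Shmt1 (-0.05 with Dppa2 siRNA). Of the 6 genes of that list, Shmt2 included, 3 had all Dppa4 siRNA libraries above the control libraries (13.7% of all genes). With Dppa2 siRNA 2 had (9.57% of all genes). In each knockdown 2 of the 6 had an unadjusted p below 0.05 (18% and 15.7% of all genes), at medians of 0.23 and 0.32. In the folate cycle Slc19a1, the reduced folate carrier, was at 0.48 with Dppa4 siRNA and at -0.29 with Dppa2 siRNA, and Aldh1l1 was at -0.35 with Dppa4 siRNA. For the folate cycle 7 of 21 tested genes had all Dppa4 siRNA libraries above the control libraries (13.7% of all genes) and 1 had all below (10.2% of all genes), and the median difference was 0.08; 2 of the 21 had an unadjusted p below 0.05 (18% of all genes). With Dppa2 siRNA 3 of the 21 were above (9.57% of all genes), 0 below and 3 had an unadjusted p below 0.05 (15.7% of all genes), at a median of 0.01. Shmt1 and Shmt2 belong to both this list and that of serine synthesis, so the counts of these lists share genes. Both genes had all Dppa4 siRNA libraries above the control libraries.

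For transsulfuration and glutathione synthesis the extremes were Cth (0.32 with Dppa4 siRNA), Cbs (0.51 with Dppa2 siRNA) and Cdo1 (-0.69 and -0.28). For methionine salvage and polyamines the highest was Mri1 (0.46 and 0.30), and Sms was lowest in both knockdowns. Of the small-molecule methyltransferases Gamt (-0.09) was lowest with Dppa4 siRNA, and they ranged from Icmt (-0.11) to As3mt (0.68) with Dppa2 siRNA. Amino acid transporters ranged from Slc43a2 (-0.19) to Slc6a9 (0.25) with Dppa4 siRNA. With Dppa2 siRNA they ranged from Slc43a2 (-0.17) to Slc7a11 (0.71, with a ratio of mean RPM of 1.15, on 8 to 22 reads per library). Of the 9 transporters 3 had an unadjusted p below 0.05 with Dppa2 siRNA, all raised (15.7% of all genes), and 0 with Dppa4 siRNA (18% of all genes). Their medians were 0.13 with Dppa4 siRNA and 0.24 with Dppa2 siRNA. In the amino acid response list, Ddit3 (-0.31) and Chac1 (0.53) were the extremes with Dppa4 siRNA, and all 10 genes had a positive difference with Dppa2 siRNA, from Nupr1 (0.09, which changed sign when 1 library was left out) to Ddit4, beside 7892 of the 14601 genes tested; 3 of the 10 had an unadjusted p below 0.05 (15.7% of all genes). Sds, Ftcd, Nnmt, Hnmt, Inmt and Pnmt were not tested.

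**Figure D3:**
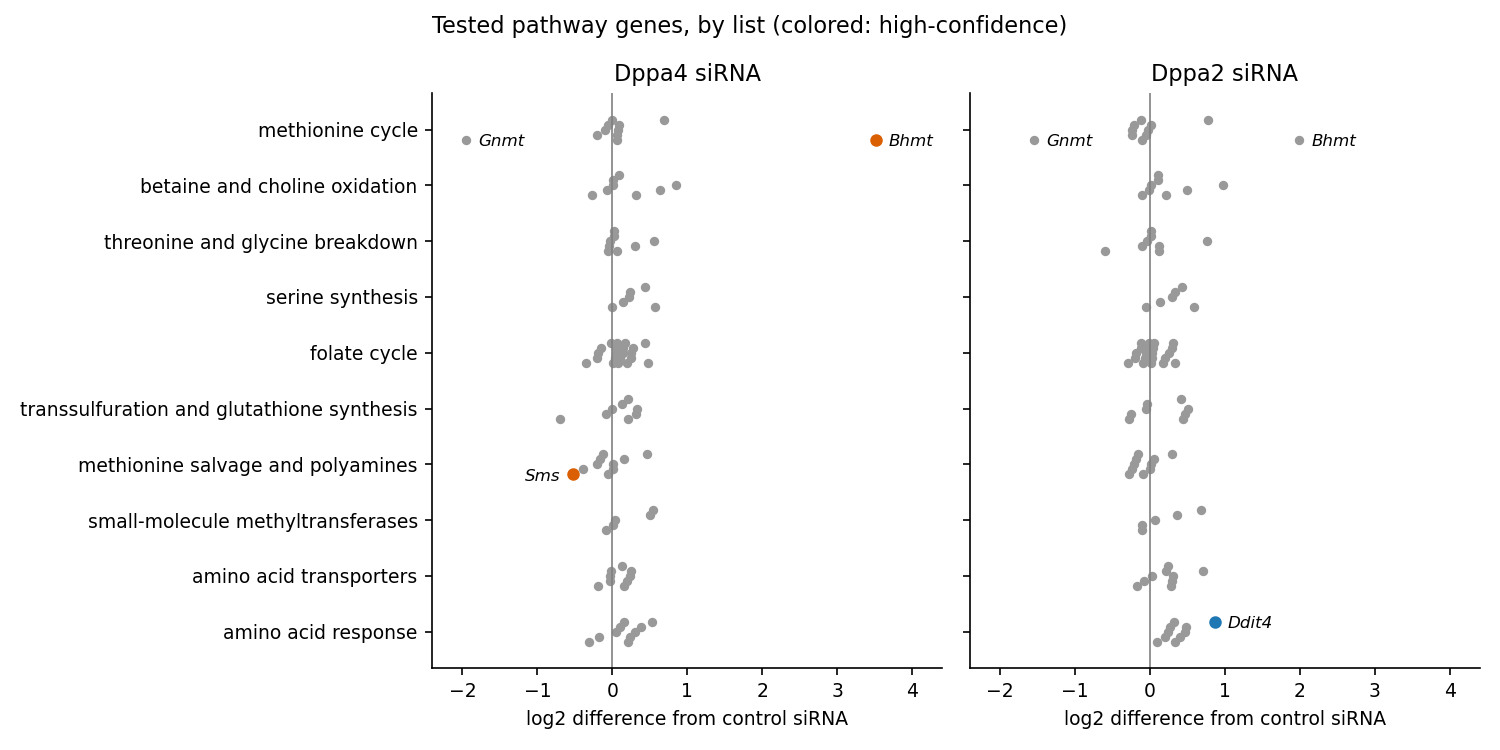
Log2 differences from control siRNA of the 93 tested pathway genes, by list, with Dppa4 siRNA and Dppa2 siRNA; each point is a gene, a gene in 2 lists appears in both, and colored points are high-confidence. Bhmt (3.51) and Gnmt (-1.95) stand furthest from 0 with Dppa4 siRNA.

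The surroundings of Bhmt were examined over 500000 bases on each side. Of the 12 genes there, Bhmt included, 8 were tested, and 0 of the 7 other than Bhmt were high-confidence in either knockdown (0.37% of all genes raised and 1.58% lowered with Dppa4 siRNA, 0.377% and 1.53% with Dppa2 siRNA), a count too small to set them apart from other genes. The differences of the others with Dppa4 siRNA were -0.15 for Papd4, -0.15 for Homer1, -0.0037 for Jmy, 0.69 for Bhmt2, 0.63 for Dmgdh, -1.16 for Arsb and -0.05 for Lhfpl2. With Dppa2 siRNA they were -0.18, -0.09, 0.10, 0.77, 0.22, -1.96 and -0.03 in the same order. Arsb, a lysosomal sulfatase, had 20, 32 and 10 inferred reads with control siRNA, 3, 4 and 1 with Dppa2 siRNA, and 4, 13 and 4 with Dppa4 siRNA, and did not pass limma (adjusted p = 0.10 with Dppa2 siRNA, 0.0307 to 0.32 over the alternatives tried, of which 2 of 26 passed, and 0.304 with Dppa4 siRNA). Cmya5, Gm15622, AW495222 and Gm15907 were not tested. Gm15622, on the strand opposite Bhmt and within it, was listed at 0 reads in all 9 libraries.

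**Figure D4:**
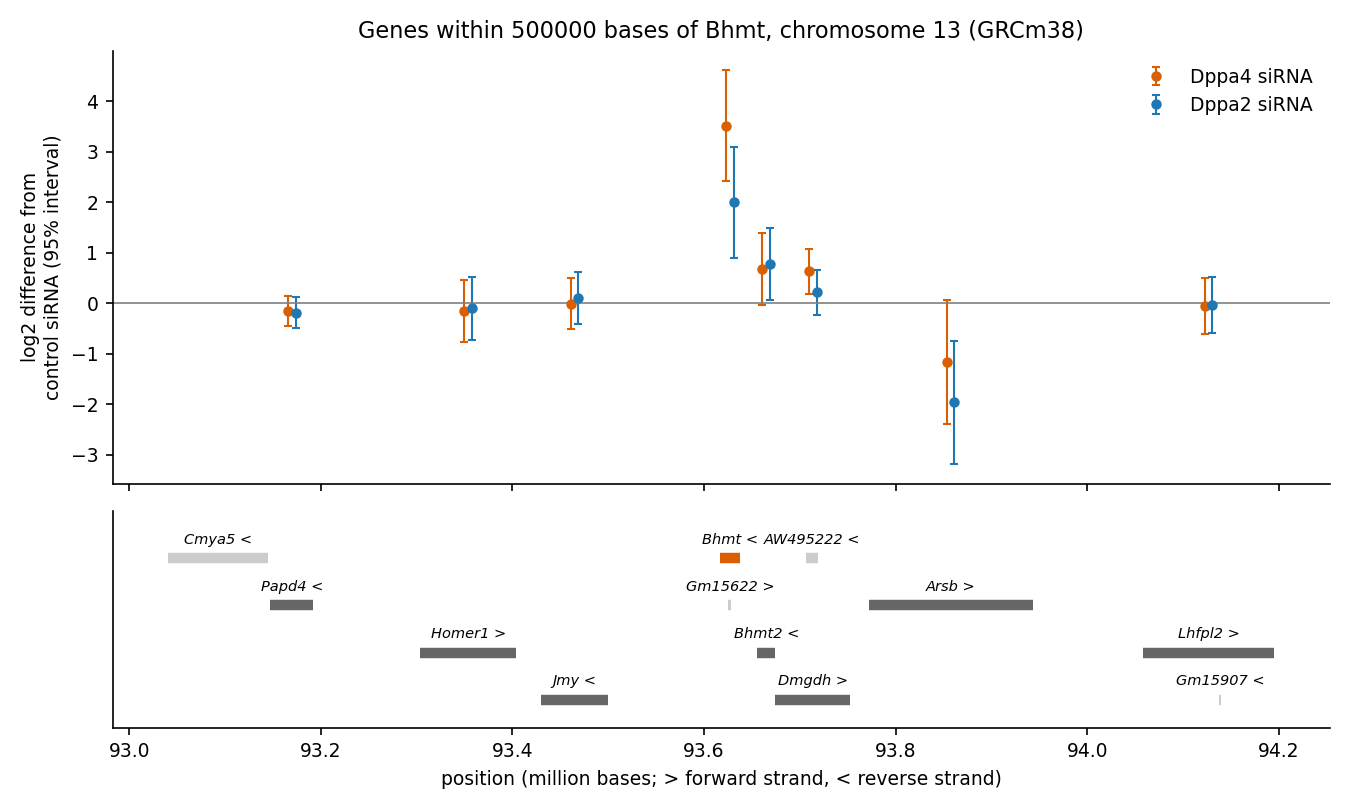
Log2 differences from control siRNA with 95% intervals for the tested genes around Bhmt on chromosome 13 of GRCm38 (above) and the position and strand of all 12 genes (below; dark bars are tested genes, light bars genes that were not tested, and Bhmt is orange). Bhmt (3.51 with Dppa4 siRNA) is higher than its neighbours Bhmt2 (0.69) and Dmgdh (0.63).

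The sequence before the start of the genes was compared for 7 of the 9 genes, with sequences from RefSeq (GRCm38.p6). Tdh had no entry, and the window given for Bhmt lies mostly inside the annotated first exon of Bhmt, so it is not used. In the 250 bases before the start, the dinucleotide CG, which reads the same on both strands, occurred 6 times for Gnmt, 7 for Shmt2, 9 for Ahcy, 17 for Gcat, 20 for Bhmt2 and Mtr and 29 for Mat2a, beside a median of 6 over 32851 promoters. Of these promoters 17.9% have as many as Bhmt2 or more. The promoters of Gnmt and Shmt2 are shown, with CG in capitals, because these were the genes other than Bhmt whose groups did not overlap in either knockdown. That of Gnmt is chr17:46729166-46729415 and that of Shmt2 is chr10:127522445-127522694, both on the reverse strand; the last 3 bases of that of Gnmt lie within the annotated gene.
Gnmt: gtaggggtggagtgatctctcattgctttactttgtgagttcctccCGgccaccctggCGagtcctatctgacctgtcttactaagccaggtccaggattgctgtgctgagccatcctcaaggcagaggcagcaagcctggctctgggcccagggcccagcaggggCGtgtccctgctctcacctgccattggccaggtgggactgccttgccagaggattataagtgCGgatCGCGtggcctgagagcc
Shmt2: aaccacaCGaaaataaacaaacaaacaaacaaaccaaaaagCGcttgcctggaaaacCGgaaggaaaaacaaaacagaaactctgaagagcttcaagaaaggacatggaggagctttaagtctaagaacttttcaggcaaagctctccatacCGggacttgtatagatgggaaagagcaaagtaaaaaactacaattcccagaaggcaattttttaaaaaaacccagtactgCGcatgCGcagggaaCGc

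The 5 tested genes most like Bhmt over the 9 libraries, by Pearson correlation of log2 expression, were Lims2 (0.97), 1700101E01Rik (0.97), AC150897.1 (0.97), Zfp661 (0.96) and Def8 (0.96). These were the highest of 14600 values over 9 libraries that share the treatments and depths, and are given as a description. Their differences with Dppa4 siRNA were 1.28, 1.70, 0.90, 0.59 and 0.27. Among the other 8 genes the correlation with Bhmt was 0.85 for Shmt2 and 0.80 for Bhmt2, which rank 276 and 524, and -0.80 for Gnmt. It was 0.26 for Mat2a, 0.05 for Ahcy, -0.10 for Mtr, -0.17 for Gcat and -0.37 for Tdh. All these correlations use the libraries on which Bhmt was chosen.

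Markers of other cell types were examined because Bhmt is known from liver and kidney. Of 8 hepatocyte markers 2 were tested. Hnf4a, a transcription factor of liver and of primitive endoderm, was at 0.09, 0.98 and 0.71 with control siRNA, 2.02, 2.06 and 1.70 with Dppa2 siRNA, and 2.22, 2.10 and 1.98 with Dppa4 siRNA. It rose in both, by 1.51 with Dppa4 siRNA (limma SE 0.23, adjusted p = 0.00859) and by 1.33 with Dppa2 siRNA (limma SE 0.23, adjusted p = 0.0142). The call with Dppa2 siRNA was lost without Dppa2 library A (1.29, adjusted p = 0.0672 from limma) and without Dppa2 library C (1.45, adjusted p = 0.0368 from limma), where the intensity difference filter was missed. It was also lost with a replicate block (adjusted p = 0.0512) and with only the 6 libraries compared (adjusted p = 0.0778); its adjusted p was 0.0142 to 0.0778 over the alternatives tried. On the RPM scale Hnf4a passed limma with Dppa4 siRNA (1.34, adjusted p = 0.0134; 0.00848 to 0.0495 over the alternatives tried) but not the filter, and with the adjusted p of the filter both calls of Hnf4a were lost. Apoa1 had differences of 1.06 and 1.05 (ratios of mean RPM of 1.32 and 1.14, on 1 to 13 reads per library) and did not pass. Afp and Serpina1a were listed at 0 reads in all 9 libraries, and Alb and Fgb had at most 1 read in any library. The summed RPM of the 8 markers, of which Hnf4a was the most abundant, were 1.70, 3.30 and 2.85 with control siRNA, 5.65, 5.81 and 4.47 with Dppa2 siRNA, and 6.65, 5.85 and 5.20 with Dppa4 siRNA.

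All 7 primitive endoderm markers were tested, and 0 were high-confidence in either knockdown by limma with the filter (5 and 3 had an unadjusted p below 0.05 with Dppa4 and Dppa2 siRNA; 18% and 15.7% of all genes). By limma alone Gata6 (1.44, SE 0.24, adjusted p = 0.0132) and Sox17 (1.20, SE 0.25, adjusted p = 0.0348) passed with Dppa4 siRNA and 0 passed with Dppa2 siRNA (1.1% and 1.16% of all genes were raised by limma alone). Gata6 no longer passed limma without Dppa4 library A or B (adjusted p = 0.0666 and 0.0762; 0.00834 to 0.0762 over the alternatives tried), and was high-confidence without control library B (1.57), with log2 above 0 in at least 3 libraries (adjusted p = 0.0156), on the RPM scale (1.22, adjusted p = 0.0224) and, with the filter on low values applied again, without control library A (1.60, adjusted p = 0.0299). Sox17 no longer passed without control library A or C (0.0967 and 0.0703) or without Dppa4 library A, B or C (0.143, 0.136 and 0.106), nor with no filter on low values (0.098), a replicate block (0.10), only the 6 libraries compared (0.0659) or the RPM scale (0.83, adjusted p = 0.10), with 0.0226 to 0.143 over the alternatives tried. With Dppa4 siRNA the largest difference among the 7 was that of Sox7 (2.02, adjusted p = 0.0788 from limma) and the smallest that of Dab2 (0.32, adjusted p = 0.295 from limma), and with Dppa2 siRNA these were Sox7 (1.60) and Pdgfra (0.02). With Dppa4 siRNA 6 of the 7 had all 3 libraries above the control libraries (13.7% of all genes), with Dppa2 siRNA 2 of the 7 had (9.57% of all genes), and the median difference of the 7 was 1.20, beside 0.57 with Dppa2 siRNA. Summed RPM were 18.3, 19.8 and 13.7 with control siRNA, 16.9, 21.3 and 21.8 with Dppa2 siRNA, and 24.7, 27.5 and 26.5 with Dppa4 siRNA, with Dab2 the most abundant and none at 0 in all libraries. The summed RPM of these markers was thus highest with Dppa4 siRNA, as was the mean of Bhmt. Neither Bhmt nor any of these markers passed limma between the knockdowns, so this order is a description. The part of these markers in the level of Bhmt was not tested.

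The 5 markers of 2-cell-like cells were all high-confidence and lowered in both knockdowns (1.58% and 1.53% of all genes with Dppa4 and Dppa2 siRNA), from Zfp352 (-5.66) to Zscan4d (-7.38) with Dppa4 siRNA and from -5.31 to -6.94 for the same genes with Dppa2 siRNA. Tmem92 fell by 6.54 and 5.97, Tcstv3 by 6.08 and 5.50, and Zscan4c by 6.59 and 6.83. With log2 above 0 in at least 3 libraries Zfp352 and Tcstv3 passed limma but not the intensity difference filter. With the adjusted p of the intensity difference filter Tcstv3 was not called with Dppa4 siRNA. Zfp352 and Tcstv3 passed the filter on low values through the 3 control libraries alone. Their calls are therefore descriptions and are not read against the shares of all genes. Both were not tested without a control library where that filter was applied again. The list summed to 83.8 to 86.1 RPM in the control libraries and to 0.306 to 1.07 in the knockdown libraries, with Zscan4d the most abundant and none at 0 in all libraries. Gnmt had lower values in the same libraries without being high-confidence in the main fit, and the part of these cells in the level of Gnmt was not tested.

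The other markers were not called. Of the 9 ESC markers, which summed to 4250 to 5517 RPM and of which Pou5f1 was the most abundant, 0 were called by limma with the filter in either knockdown (1 and 0 had an unadjusted p below 0.05 with Dppa4 and Dppa2 siRNA; 18% and 15.7% of all genes), with differences from -0.28 (Nanog) to 0.38 (Utf1) with Dppa4 siRNA and from -0.22 to 0.27 for the same genes with Dppa2 siRNA. Of 6 trophoblast markers, which summed to 66.5 to 94.2 RPM, 5 were tested and 0 called by limma with the filter (1 and 0 had an unadjusted p below 0.05, beside the same shares), with Tfap2c the most abundant, at -0.36, and Cdx2 highest, at 0.15, with Dppa4 siRNA, and with Gata3 (-0.07) and Krt8 (0.38) the extremes with Dppa2 siRNA. Of 5 fibroblast markers, which summed to 6.88 to 10.8 RPM and of which Thy1 was the most abundant, Thy1 (0.12) and Col1a1 (0.10) were tested with Dppa4 siRNA, at -0.23 and 0.30 with Dppa2 siRNA, and Postn and Lum were listed at 0 in all libraries. Ttr, Apoa2, Elf5 and Col1a2 were not tested.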

How the data were processed

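Values are log2 expression as deposited. The authors trimmed reads with Trim Galore (0.4.5 by the labels, whereas the methods of the study name an earlier version), mapped them with HISAT2 2.0.5, quantitated mRNA strand-specifically with SeqMonk and matched the distributions of the 9 libraries. The authors called genes with DESeq2 and an intensity difference filter; limma 3.58.1 in R 4.3.3 was used here because the values are log2. A trend of spread with intensity was fitted to 14601 genes with log2 above -2 in at least 3 libraries, and p-values were adjusted over all of them (threshold 0.05). The filter used the 1% of genes nearest in mean expression. Reads were inferred by rank up to 300 in each library. The fit was tested on data simulated with independent normal noise around the mean of each gene. That simulation had no floor of reads and no deviations shared between libraries, so it does not cover genes with few reads. Figures used Python 3.11.15, numpy 2.4.6, pandas 2.3.3 and matplotlib 3.10.9.

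The members and lists were chosen with earlier results of these data known. Genes were named by rule: the 9 genes, the targeted genes, every called gene of a list, the genes with the largest and smallest difference in each list, tested neighbours of Bhmt and the 5 genes most like it; 1 extreme of a list is not reported here. Alternatives changed the filter, the trend, the spread estimate, the libraries fitted, the scaling and the calling rule, added a replicate block, or left out 1 library. RPM (inferred reads per Mread), log2 with 0.1 added, were added after the data were seen. How the filter is treated when a library is left out was also changed after results had been seen, in part because the first counts differed from earlier results of these data; both versions are reported.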

Additional observations from a re-analysis of the deposited data

How the results depend on the processing

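With Dppa4 siRNA 284 genes were high-confidence, with Dppa2 siRNA 279, and 3 differed between the knockdowns. With the replicate block, that is with libraries of the same letter paired, the counts were 176, 187 and 1, and 0 pathway genes other than the 9 were called in either knockdown. Libraries of the same letter did not in general deviate together (Pearson r of -0.58 to 0.37), so this block may not match a real pairing. By limma alone the counts were 502 and 502, and 1 of the 8 genes other than Bhmt, Gnmt, was called with Dppa4 siRNA. With an adjusted p of the intensity difference filter they were 73 and 92, and with Dppa4 siRNA Bhmt itself, the other 8 genes and all other pathway genes were not called; Sms, Hnf4a in both knockdowns and Tcstv3 with Dppa4 siRNA also lost their calls. With no filter on low values 457 genes were called with Dppa2 siRNA, and 5 differed between the knockdowns. Among the 457 were 1 of the 8 (Shmt2) and 3 other pathway genes, 1 of them Sardh. In that fit Sardh was also called with Dppa4 siRNA (-1.94), and Sms was not. The knockdown libraries of Sardh are all at 0 reads and so lack a spread. With log2 above 0 in at least 3 libraries 184 genes were called with Dppa2 siRNA, and with only the 6 libraries compared 174. Fitting only the 6 libraries gave 0 other pathway genes in either knockdown, and no intensity trend gave 0 with Dppa4 siRNA. On inferred RPM Bhmt was higher by 2.37 with Dppa4 siRNA. The causes of these changes were not tested.

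Leaving out 1 library, with the genes tested kept, gave 149 to 287 genes with Dppa4 siRNA (164 and 149 without Dppa4 library A and B), 183 to 239 with Dppa2 siRNA (183 without Dppa2 library C) and 1 to 3 between the knockdowns (1 without Dppa4 library B or C). This treatment of the filter was chosen after results had been seen. In the version run first, with the filter applied again to the libraries left, the ranges were 115 to 279 (115, 123 and 185 without control library A, B and C, and 159 and 142 without Dppa4 library A and B), 100 to 232 (149, 100 and 163 without control library A, B and C, and 184 without Dppa2 library C) and 1 to 3. Over both versions 0 to 1 of the 8 genes other than Bhmt were called in either knockdown, and 0 to 1 and 0 to 2 other pathway genes with Dppa4 and Dppa2 siRNA. Bhmt was higher by 3.06 to 3.99 with Dppa4 siRNA. Many differences near 0 changed sign when 1 library was left out. Among the 9 genes, the targeted genes, Sms and Ddit4 these were, with Dppa4 siRNA, Mat2a (-0.091 to 0.27), Mtr (-0.18 to 0.020), Ahcy (-0.0059 to 0.16), Tdh (-0.13 to 0.016), Gcat (-0.22 to 0.087), Dppa2 (-0.14 to 0.020) and Ddit4 (-0.0010 to 0.24). With Dppa2 siRNA they were Ahcy (-0.13 to 0.029) and Gcat (-0.18 to 0.17). Between the knockdowns they were Bhmt2 (-0.33 to 0.13), Tdh (-0.044 to 0.12) and Gcat (-0.20 to 0.076). Among the neighbours Jmy, Homer1 and Lhfpl2 changed sign in both knockdowns, and in the lists so did the printed differences of Slc6a12 (-0.047 to 1.34), Psat1 (-0.093 to 0.11), Gamt (-0.48 to 0.29) and Cdx2 with Dppa4 siRNA, and of Sdsl (-1.31 to 0.22), Pemt, Nupr1, Pdgfra and Gata3 with Dppa2 siRNA. Few reads limit Bhmt, Bhmt2 and Gnmt.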
